A study of Mus musculus with 27 samples.

Results

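The late response of mouse thyroid gland organoids to a 4 Gy dose was measured as the difference between irradiated and non-irradiated libraries at day 11 of culture, 6 days after irradiation. The comparison held 6 libraries, 3 at 4 Gy and 3 at 0 Gy, out of 27 in the series. They were chosen by dose and day alone, and each dose was represented by the cultures mTG11, mTG12 and mTG14. Organoids were grown in Matrigel from thyroid cells of C57BL/6 mice that were 8 to 12 weeks old, in DMEM/F12 with EGF, FGF2, Y27632 and B27. All groups shared this medium. Photon irradiation was given at day 5 with 2, 4 or 7 Gy, and the controls (0 Gy) were not irradiated. RNA with an integrity number above 9 was sequenced from the 3′ end by Smart3SEQ. The labels name mouse 1, 2 and 3, whereas the count columns name the 3 cultures without tying them to those numbers. The main fit held culture as a block over the 12 day 11 libraries. Its p-values thus describe how dose differences varied among 3 cultures, not how levels did.

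Ionizing radiation breaks DNA, and the first transcriptional answer is usually carried by p53, which switches on genes of cell cycle arrest and death. A later answer can run through type I interferon signalling: pattern sensors for nucleic acids induce interferon, its receptor activates transcription factors such as STAT2 and IRF9, and these bind the interferon-stimulated response element in the promoters of antiviral genes. Among the genes under this control are those of MHC class I, which displays peptides from inside the cell on its surface. Multiciliated cells, by contrast, are a terminally differentiated epithelial type made under MCIDAS and FOXJ1 that carries motile cilia and is best known from airway, oviduct and ependyma.

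Total estimated counts ran from 3636887 to 4200268 in the 0 Gy libraries and from 3622848 to 4444834 in the 4 Gy libraries, so that 3 counts correspond to 0.675 to 0.828 counts per 1000000 (CPM). Between 9.84% and 15.9% of counts fell on ribosomal RNA genes. Libraries of the same culture deviated together, with correlations of 0.27 to 0.378 between same-culture pairs. Correlations between different cultures (none above -0.113) add nothing to this. Each dose group's mean was subtracted first, which makes them negative when same-culture values are positive. Because same-culture libraries deviated together, culture was kept as a block in the fit, as the columns' names allow. Levels of 19 markers of thyroid differentiation were read to describe the libraries. Of these, 12 had enough counts to be tested between doses and 0 were called. That test compares doses and cannot check the thyroid label. Slc5a5, Cdh16 and Klhl14 had no count in any of the 6 libraries, and Tg, the precursor of thyroid hormone, stood at 0.238, 6.17 and 0.55 CPM at 0 Gy and at 1.62, 7.87 and 1.1 CPM at 4 Gy (mTG11, mTG12, mTG14, the order kept throughout). Transcription factors and oxidase genes of the thyroid were present: Nkx2-1 reached 17.2 to 21.2 CPM at 0 Gy and 11.9 to 17.8 CPM at 4 Gy, and Foxe1 28.7 to 35.2 CPM against 24 to 35.1 CPM.

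At 4 Gy, 238 of 19901 tested genes (1.2%) differed from 0 Gy with an adjusted p under 0.05 (edgeR quasi-likelihood test with culture as a block, Benjamini-Hochberg adjustment). Of these, 172 were higher and 66 lower. The higher genes were led by interferon-stimulated and MHC class I genes, and the lower ones by genes of multiciliated cells. The secretory gene Bpifb1 and the AP-1 factors Fos and Fosb were also among the lower ones. The direction was shared by all 3 cultures for 237 of the 238 genes, while the levels of the dose groups did not overlap for 160 (115 of the higher, 45 of the lower) and overlapped for 78. Over all tested genes, 6.72% were higher and 4.52% lower without overlap. The calls depended on the block. Without it, 1 gene was called, the interferon-inducible Ifi207, and 1500 genes had an unadjusted p under 0.05 against 2189 with the block. None of the list members named below as called passed the threshold without it. Leaving out 1 library gave between 84 calls (without the 0 Gy library of mTG12) and 160 (without the 4 Gy library of mTG11). Across 29 gene lists with 593 genes, 17 lists held at least 1 called gene, and 78 called genes belonged to a list. The median log2 fold change of all tested genes was -0.01.

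Of the 37 interferon-stimulated genes tested, 30 were called higher and 0 lower, where 0.864% of all genes were called higher. Their median log2 fold change was 1.22, all 37 had a positive value, and 35 were higher at 4 Gy in each culture, against 16.5% of all tested genes. Log2 fold changes of the called members ran from 0.64 to 3.18. The summed level of the list rose from 1400, 584 and 980 CPM at 0 Gy to 3200, 1390 and 2240 CPM at 4 Gy, a ratio of 2.29, 2.38 and 2.29 within mTG11, mTG12 and mTG14. The ratios were close although the cultures started from different levels: 24 of the 30 called genes were highest in mTG11 and lowest in mTG12 at both doses. Of the 30, 11 overlapped between the doses and 19 did not. Among all 172 genes called higher, 115 did not overlap. Leaving out 1 library gave 22 to 26 calls in the list, and leaving out a culture gave 18 without mTG11, 26 without mTG12 and 19 without mTG14.

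The promoters of 3 members and of B2m are shown because they hold the core of the interferon-stimulated response element near the annotated start. Each line gives the 200 bases that end just before the start of the gene, on the gene's own strand, from RefSeq on build GRCm38.p6. Capitals mark every match to the core that was searched, which is GAAA, any 2 bases and GAAA, or on the other strand TTTC, any 2 bases and TTTC. Overlapping matches run together. Isg15 lies at chr4:156200819-156201018 on the minus strand, Ifit3 at chr19:34583329-34583528 on the plus strand, Apol9b (its first listed start) at chr15:77728872-77729071 on the plus strand, and B2m at chr2:122147487-122147686 on the plus strand.
Isg15: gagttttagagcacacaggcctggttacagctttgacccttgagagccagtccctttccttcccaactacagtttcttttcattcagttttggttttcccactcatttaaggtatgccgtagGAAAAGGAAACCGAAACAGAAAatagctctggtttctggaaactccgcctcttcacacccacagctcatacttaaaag
Ifit3: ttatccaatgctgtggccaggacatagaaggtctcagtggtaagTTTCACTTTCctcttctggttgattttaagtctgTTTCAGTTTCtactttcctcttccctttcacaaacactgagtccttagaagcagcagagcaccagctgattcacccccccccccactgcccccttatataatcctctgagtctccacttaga
Apol9b: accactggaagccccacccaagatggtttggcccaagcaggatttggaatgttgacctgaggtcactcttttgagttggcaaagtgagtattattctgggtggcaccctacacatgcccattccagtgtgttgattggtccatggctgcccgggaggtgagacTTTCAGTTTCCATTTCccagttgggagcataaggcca
B2m: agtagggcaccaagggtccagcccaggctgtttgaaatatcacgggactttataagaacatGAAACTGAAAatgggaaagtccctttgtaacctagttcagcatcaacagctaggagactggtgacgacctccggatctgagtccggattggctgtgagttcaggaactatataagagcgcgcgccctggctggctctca
Isg15 held 3 overlapping matches, which began 78 bases and ended 57 bases before the start. Ifit3 and Apol9b held 2 matches each and B2m 1.

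Over windows of 300 bases (250 before to 50 after the start), this core was present on either strand in 3.75% of the 12587 tested genes that had a window. It was found in 32 of 131 genes called higher (24.4%), in 0 of 43 called lower, in 17 of 26 interferon-stimulated genes with a window (65.4%) and in 5 of 18 MHC class I genes (27.8%). A match describes the letters of the window and not a bound site.

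Ifi27l2a, a mitochondrial interferon-inducible gene on chromosome 12 (GRCm39, 103399975 to 103409950, minus strand), had the largest rise among the called genes averaging 10 CPM or more. Its level was 59.3, 6.43 and 28.9 CPM at 0 Gy and 568, 85.3 and 253 CPM at 4 Gy. Every 4 Gy library lay above every 0 Gy library, and the fitted rise was 9.04-fold (log2 3.18, SE 0.30, adjusted p = 5.98e-05). Next came the apolipoprotein L genes Apol9b and Apol9a, near-identical neighbours whose reads may be divided between them. Apol9b went from 7.74, 2.28 and 3.44 CPM to 44.3, 17.2 and 31.2 CPM (log2 2.80, SE 0.25, adjusted p = 4.33e-05), and Apol9a had a log2 fold change of 2.71.

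Antiviral effectors followed. Ifit3, which binds foreign RNA together with the other IFIT proteins, went from 29.4, 10.2 and 14.2 CPM to 97.4, 40.5 and 64.5 CPM, a 3.77-fold rise without overlap (log2 1.92, SE 0.16, adjusted p = 3.03e-05). Reads of Ifit3 can also fit its paralogue Ifit3b. Isg15, a ubiquitin-like modifier, stood at 83, 17.3 and 47.3 CPM and then at 221, 87.3 and 165 CPM, which was 3.32-fold higher (adjusted p = 0.000312). The lowest 4 Gy library exceeded the highest 0 Gy library by little, since mTG12 at 4 Gy was near mTG11 at 0 Gy. Oas2, an enzyme that makes the messenger of RNase L, rose by a log2 value of 2.01 (10, 2.14 and 3.85 CPM to 36.8, 9.45 and 20.1 CPM), and its groups overlapped. The RNA helicase Ddx60 (log2 1.68) and the nuclear body protein Sp100 (log2 1.64) behaved alike, each with a higher value in every culture and with overlapping groups.

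The signalling genes given here rose by less than the effectors named above, which were named for their large rises. The list median was 1.22 and its called members began at 0.64, so they were not set apart from the list as a whole. Stat2 and Irf9, which act in 1 complex, were called with log2 fold changes of 1.20 and 0.90, as was Irf7, the factor that drives further interferon transcription, with 1.12 (94.3, 31.1 and 76.7 CPM to 181, 100 and 152 CPM). Of the 7 members that were not called, Eif2ak2 and Ifi27 had log2 values of 0.16 and 0.17, Mx1, Ifih1 and Mx2 of 0.43, 0.50 and 0.51, and Ifit2 and Cmpk2 of 1.62 and 1.72. Outside the list, and chosen after their values were seen, Oas1g (log2 1.51), Ifit1bl1 (1.31) and Ifi207 (1.63) were called higher. Ifi207 differed little between cultures, at 5.44, 5.01 and 5.55 CPM before and 19.6, 15.2 and 15.4 CPM after, and was the gene called without the block.

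**Figure D1:**
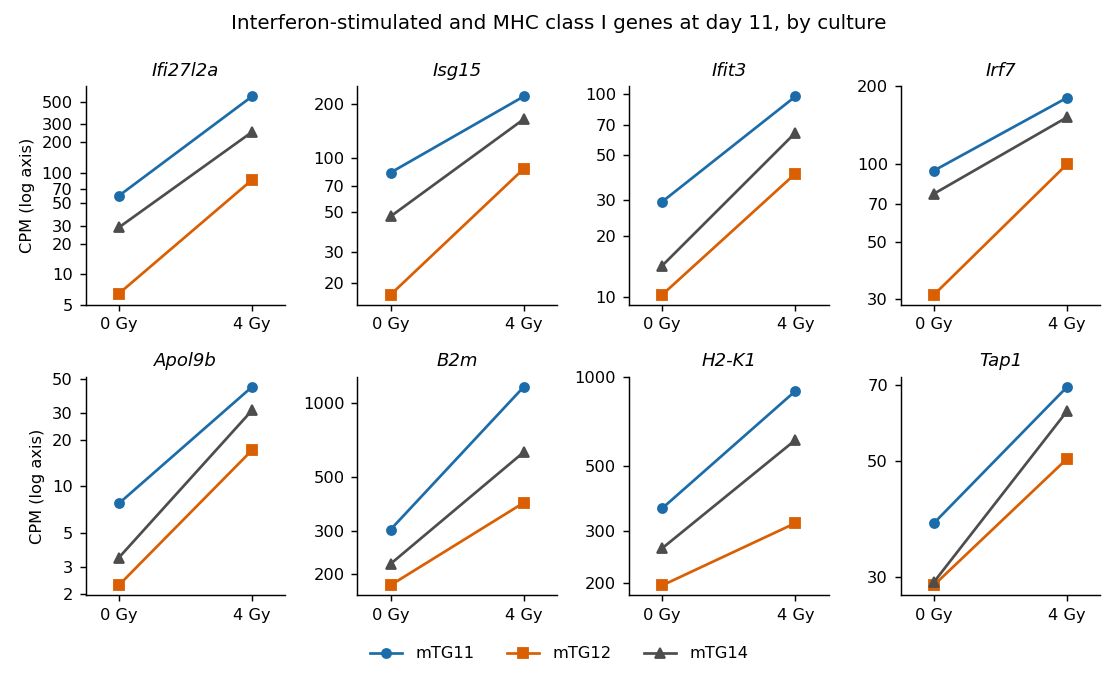
Level in CPM (log axis, scaled per gene) at 0 Gy and 4 Gy on day 11 for 8 interferon-stimulated and MHC class I genes. Lines join the libraries of 1 culture (mTG11, mTG12, mTG14). All lines rise, and mTG12 is the lowest culture at both doses for each of these genes, as for Irf7 with 31.1 and 100 CPM.

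Of 22 genes of MHC class I antigen presentation tested, 9 were called higher and 0 lower, the median log2 fold change was 0.60, and 15 were higher in all 3 cultures. Among all tested genes, 0.864% were called higher and 16.5% were higher in all 3 cultures. B2m, the invariant light chain on chromosome 2 (GRCm39, 121977957 to 121983594, plus strand), was at 304, 180 and 220 CPM at 0 Gy and at 1170, 392 and 632 CPM at 4 Gy, without overlap. The fitted rise was 2.86-fold (log2 1.52, SE 0.12, adjusted p = 3.03e-05), and B2m had the smallest p of all genes. Of the classical heavy chains, H2-K1 rose from 358, 196 and 262 CPM to 896, 319 and 611 CPM (log2 1.07, adjusted p = 7.59e-05), and H2-D1 from 340, 218 and 289 CPM to 694, 305 and 523 CPM (log2 0.77). In each of these heavy chains mTG12 at 4 Gy lay below mTG11 at 0 Gy, so the groups overlapped. The peptide transporter subunit Tap1 was at 38.1, 29 and 29.4 CPM and then at 69.4, 50.6 and 62.4 CPM (log2 0.90, adjusted p = 0.000149), without overlap.

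Some non-classical class I genes were also called. H2-Q7 and H2-Q9, which are near-identical and may share reads, both had a log2 fold change of 2.55, and H2-T22 and H2-Q4 had 0.93 and 1.08. The immunoproteasome subunit Psmb9 was called (log2 1.02), although in mTG12 it went only from 6.7 to 8.1 CPM. The 13 members that were not called had log2 values from -0.08 (Psmb10) to 2.38 (H2-Q6, adjusted p = 0.0686), among them the chaperone Pdia3 (-0.03), the proteasome activator Psme1 (0.07), H2-T23 (0.55, adjusted p = 0.053) and the class I transactivator Nlrc5 (0.64). By culture, the summed level of the list was 1.84, 1.19 and 1.64 times its 0 Gy value in mTG11, mTG12 and mTG14. H2-Eb1, a class II gene outside the lists and chosen after its values were seen, went from 2.14, 2.14 and 1.1 CPM to 5.13, 15.7 and 5.38 CPM (log2 2.25, adjusted p = 0.0306). Among the 24 chemokine and cytokine genes of that list tested, Cxcl10 alone was called, where 0.864% of all genes were called higher. Cxcl10, an interferon-induced attractant of T cells, was at 0.476, 0 and 0.55 CPM at 0 Gy. At 4 Gy it was at 2.7, 2.25 and 2.48 CPM, a few counts per library. The chemokine Ccl11, which is outside that list, was called lower (log2 -1.03).

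Many markers of immune cells were at or near 0 in these libraries, but not all. Cd14 averaged 167.1 CPM at 0 Gy and 134 CPM at 4 Gy. Adgre1, C1qa, C1qc, Cd79a and Nkg7 had no count in any of the 6, and the pan-leukocyte gene Ptprc had a count in 1 of them, at 0.27 CPM. The list of 17 macrophage and leukocyte genes had 11 with fewer than 3 counts in each group, and its sum, carried by Cd14, Cd68 and Itgam, was 182 to 299 CPM at 0 Gy and 140 to 258 CPM at 4 Gy. The summed level of the endothelial list was 1.34 to 2.2 CPM at 0 Gy and 0.54 to 4.27 CPM at 4 Gy, and that of the C-cell list 3.3 to 5.95 CPM and 4.69 to 7.03 CPM.

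**Figure D2:**
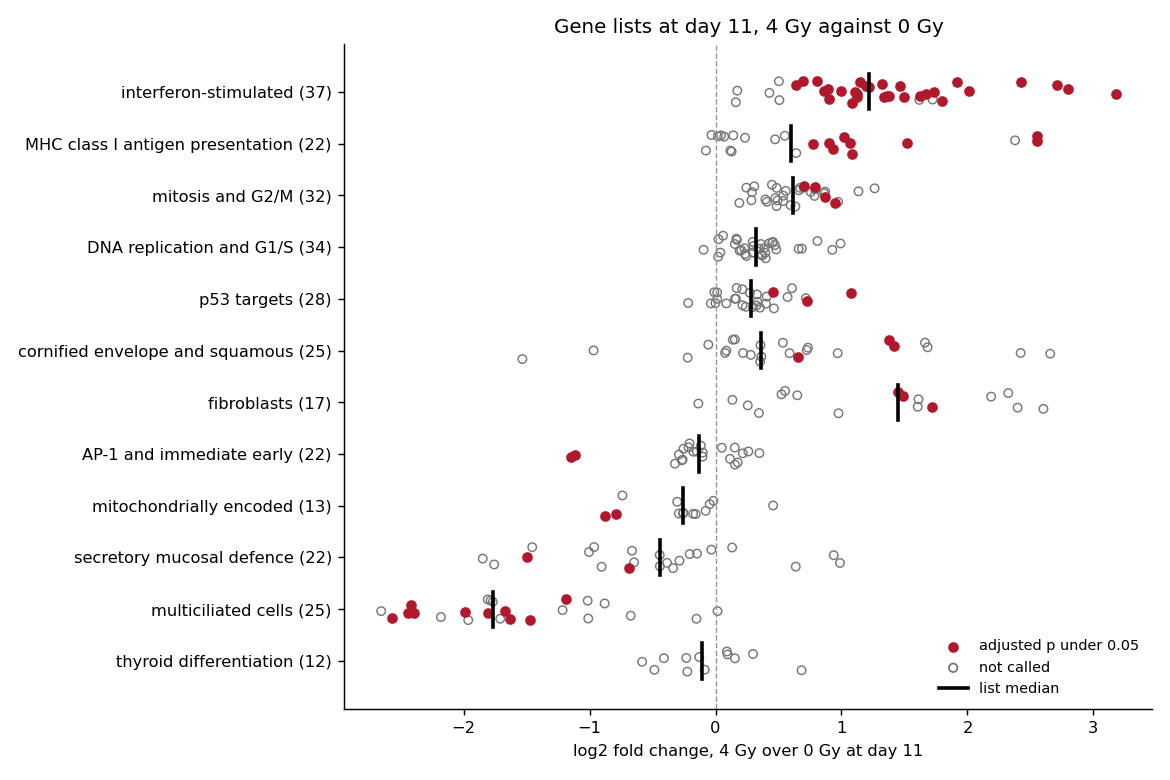
Log2 fold change of 4 Gy over 0 Gy at day 11 (horizontal axis) for the tested members of 12 gene lists (rows, number tested in brackets), filled where the adjusted p was under 0.05, with the list median as a bar. Interferon-stimulated genes lie to the right with a median of 1.22, and genes of multiciliated cells to the left with a median of -1.77.

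Genes of multiciliated cells formed the list with the most members called lower. Of 25 tested, 10 were called lower and 0 higher, where 0.332% of all genes were called lower, and the median log2 fold change was -1.77. A negative value was found for 24, and 21 were lower in all 3 cultures, against 12.3% of all tested genes. The summed level of the list fell from 186, 180 and 94.2 CPM to 83.5, 50.7 and 43.1 CPM, so that 0.449, 0.282 and 0.458 of the 0 Gy level was left. In a bulk library, fewer cells of a type and less RNA per cell cannot be told apart.

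Foxj1, the master factor of motile cilia (chromosome 11, GRCm39, 116221530 to 116226225, minus strand), was at 26.4, 24.9 and 12.1 CPM at 0 Gy and at 10, 6.07 and 4.14 CPM at 4 Gy. The 4 Gy libraries all lay below the 0 Gy libraries (log2 -1.67, SE 0.25, adjusted p = 0.00274). Upstream of it, Mcidas, which starts the multiciliate programme, went from 5.48, 8.31 and 1.65 CPM to 1.62, 0.684 and 0.552 CPM (log2 -2.42, adjusted p = 0.0365). Ccno, needed for the mass production of centrioles, fell from 12.4, 9.38 and 4.95 CPM to 4.05, 2.02 and 0.828 CPM (log2 -1.99), and Myb, another early factor, had a log2 fold change of -1.47.

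Structural genes of the axoneme fell alongside. Tppp3, a tubulin-binding protein abundant in ciliated cells, was at 18.3, 20.1 and 9.35 CPM and then at 4.59, 2.7 and 1.93 CPM (log2 -2.40, SE 0.31, adjusted p = 0.000805). The dynein heavy chain Dnah5 went from 5, 4.56 and 1.37 CPM to 1.35, 0.225 and 0.276 CPM (log2 -2.56), which leaves very few counts per library. Tekt1 (log2 -2.44), Dnali1 (-1.80), the radial spoke gene Rsph1 (-1.63) and Cfap126 (-1.19) were the other called members. Of these 10 genes, 9 did not overlap between doses. Among all 66 genes called lower, 45 did not, and 4.52% of all tested genes were lower without overlap. Under DESeq2, 4 of the list were called, and Mcidas, Dnah5, Tekt1, Myb, Dnali1 and Cfap126 were not among them. Leaving out 1 library gave 3 to 9 calls, with 3 without mTG11 or mTG12 at 0 Gy or mTG12 at 4 Gy, and leaving out culture mTG11, mTG12 or mTG14 gave 3, 3 and 2.

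Some transcription factors of the list were not called: Trp73 had a log2 value of 0.02, Rfx2 of -0.15 and Rfx3 of -0.67. Further cilia genes outside the list, chosen after their values were seen, were called lower: Lrrc23 went from 18.8, 18.8 and 8.52 CPM to 6.22, 3.37 and 1.93 CPM (log2 -2.05, adjusted p = 0.00735), and Ccdc39, Ccdc40, Ak7 and Cfap45 had values of -2.56, -1.42, -1.60 and -1.09. Sec14l3, a lipid-transfer gene of ciliated airway cells, showed the largest fall of the called genes averaging 10 CPM or more and lower in all 3 cultures, from 16.5, 23.1 and 11.2 CPM to 9.14, 1.6 and 1.83 CPM (log2 -2.05, SE 0.42, adjusted p = 0.0265). It kept more of its level in mTG11 than in the other cultures. In the same windows, the X-box bound by RFX factors (searched on either strand as GT, any 2 bases, CC, any 3 bases, G, any 1 base and AAC) was present in 5 of 22 genes of multiciliated cells (22.7%), in 5 of 43 genes called lower (11.6%) and in 3.1% of all tested genes. Of the 7 called genes of the multiciliated-cell list with a window, 1 held it (14.3%).

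**Figure D3:**
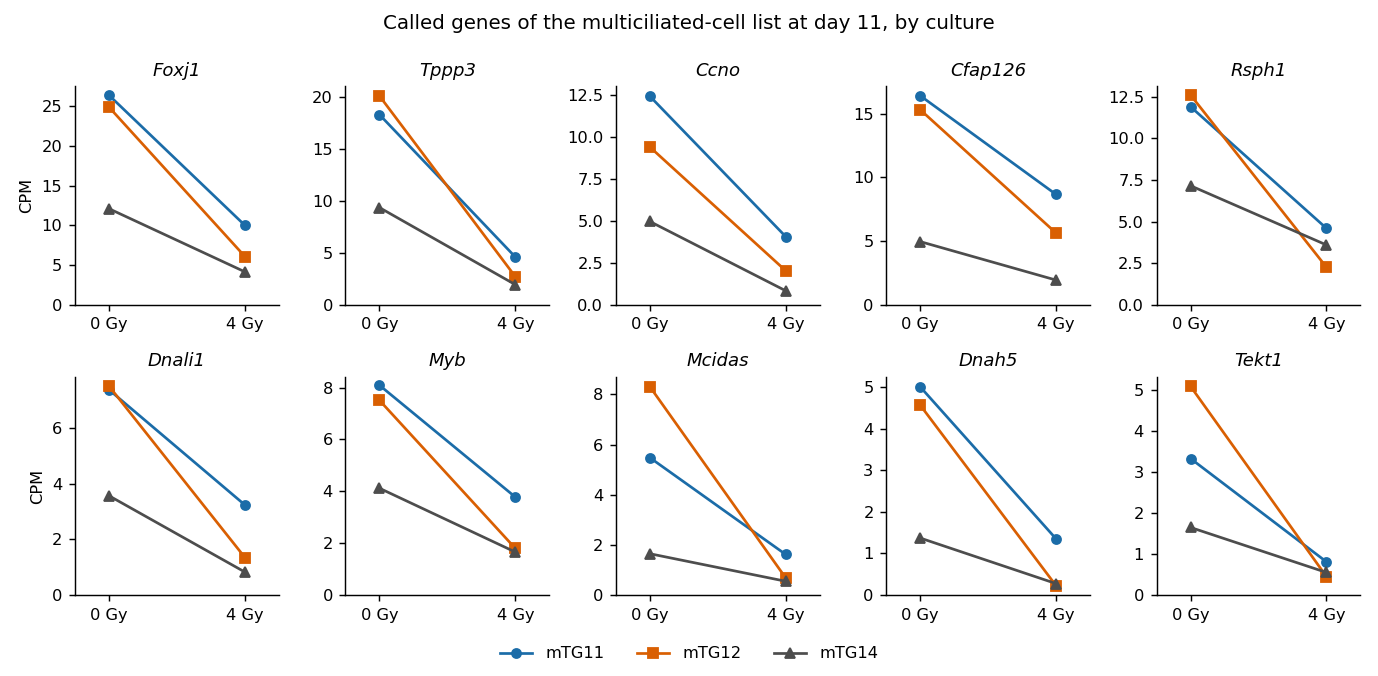
Level in CPM (linear axis from 0, scaled per gene) at 0 Gy and 4 Gy on day 11 for the 10 called genes of the multiciliated-cell list, with lines joining the libraries of 1 culture. Each line falls, as in Foxj1 from 26.4, 24.9 and 12.1 CPM to 10, 6.07 and 4.14 CPM.

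Some cell cycle genes passed the test. Of 32 mitosis and G2/M genes, 4 were called higher and 0 lower, where 0.864% of all genes were called higher. All 32 had a positive log2 fold change with a median of 0.61. In each culture 28 were higher, against 16.5% of all tested genes, and 21 were higher without overlap, against 6.72%. The inhibitor of apoptosis and mitotic regulator Birc5 went from 11.4, 9.25 and 10.3 CPM to 18.6, 18.6 and 23.7 CPM (log2 0.95, adjusted p = 0.0245), and the ubiquitin-conjugating enzyme Ube2c from 21.6, 20 and 14.1 CPM to 31.4, 30.6 and 36.2 CPM (log2 0.79). The kinesins Cenpe and Kif23 had values of 0.87 and 0.70. None of the 4 overlapped between doses. The proliferation marker Mki67 was at 24.2, 23.7 and 26.5 CPM and then at 51.2, 42.6 and 37 CPM without overlap, but was not called (log2 0.79, adjusted p = 0.16). The summed level of the list was 1.52, 1.64 and 1.54 times its 0 Gy value, and leaving out 1 library gave 0 (mTG12 at 0 Gy) to 3 calls (mTG12 at 4 Gy), and leaving out culture mTG11 or mTG12 gave 0. In the DNA replication and G1/S list 0 of 34 were called, with 33 positive values and a median of 0.33.

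Of 28 targets of p53, 3 were called higher and 0 lower: the pro-apoptotic BH3 gene Pmaip1 (log2 0.46), the microtubule gene Psrc1 (0.73) and Ddit4l, an inhibitor of mTOR signalling (1.08). Over all tested genes, 0.864% were called higher. The median log2 fold change of the list was 0.28, and 24 values were positive. Without overlap, 8 of its genes were higher, against 6.72% of all tested genes. The summed level of the list was 1.05, 1.35 and 1.3 times its 0 Gy value in mTG11, mTG12 and mTG14. Without mTG12 at either dose 0 of them were called. Cdkn1a, the cell cycle inhibitor p21, stood at 446, 468 and 412 CPM at 0 Gy and at 459, 688 and 561 CPM at 4 Gy, higher in mTG12 and mTG14 and nearly level in mTG11 (log2 0.33, adjusted p = 0.151). Ccng1 (0.33) and Mdm2 (0.35) were not called either. Of the 30 DNA damage signalling and repair genes, 0 were called. Among 10 genes of CDK inhibitors and D cyclins, Cdkn2b, the inhibitor p15, went from 80.9, 73.2 and 82.2 CPM to 112, 98.1 and 114 CPM (log2 0.43, adjusted p = 0.0242), and Ccnd2 had a value of 0.30. Both lost their call without the 0 Gy library of mTG11 or of mTG12 or the 4 Gy library of mTG14.

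Genes of the cornified envelope, the protein shell of squamous epithelium, were called higher in 3 of 25 cases with a list median of 0.36. The share called higher among all tested genes was 0.864%. The envelope precursor Sprr3 was at 18.1, 39.1 and 49.8 CPM and then at 67.8, 150 and 77.3 CPM (log2 1.42, adjusted p = 0.0219), and Cnfn at 36.2, 35.4 and 73.4 CPM and then at 123, 95.2 and 156 CPM (log2 1.37). Tgm1, the transglutaminase that cross-links the envelope, had a log2 fold change of 0.66. The number of calls was 7 without the 4 Gy library of mTG12 and 0 without mTG12 at 0 Gy or mTG11 at 4 Gy. Basal and stress keratins had 0 calls in 18 and simple and suprabasal keratins 0 in 15. Outside the lists, and chosen after their values were seen, the tetraspan membrane protein Mal rose from 1240, 1120 and 1440 CPM to 2190, 1820 and 2220 CPM (log2 0.69, adjusted p = 0.000346). Likewise, Ly6g6c went from 7.14, 8.31 and 14 CPM to 29.7, 27.9 and 29.5 CPM (log2 1.55, adjusted p = 0.00215). Defb14, an antimicrobial defensin of skin and mucosa, had 5.95, 18.2 and 14.3 CPM at 0 Gy and 17.8, 75.9 and 34.6 CPM at 4 Gy (log2 1.68, SE 0.17, adjusted p = 0.000141).

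Levels of matrix genes differed widely between cultures, and a few were higher at 4 Gy within each. Col1a2, a chain of type I collagen, was at 0.714, 11.3 and 5.5 CPM at 0 Gy and at 6.22, 39.4 and 12.7 CPM at 4 Gy (log2 1.72, SE 0.30, adjusted p = 0.0102), higher in each culture but with overlapping groups. Col1a1 (log2 1.45) and Vim (1.49) were the other 2 calls among 17 fibroblast genes, none without overlap. Among all tested genes, 0.864% were called higher and 6.72% were higher without overlap. The summed level of the list was 167, 273 and 258 CPM at 0 Gy and 195, 445 and 341 CPM at 4 Gy, and without the 0 Gy library of mTG12 0 of its genes were called. The matrix proteases Mmp3 and Mmp10 had log2 fold changes of 1.24 and 1.53, with Mmp3 at 8.81, 59.8 and 66.5 CPM before and 23.2, 145 and 160 CPM after. Acta1, skeletal muscle actin, went from 4.29, 8.31 and 7.97 CPM to 9.73, 22.9 and 18.8 CPM (log2 1.29), and its list of muscle and fat genes from a sum of 6.43 to 24 CPM to 26.2 to 57.7 CPM.

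Besides the cilia genes, the falls reached early-response and secretory genes. Fos (chromosome 12, GRCm39, 85520658 to 85524047, plus strand) was at 190, 249 and 197 CPM at 0 Gy and at 120, 116 and 67.1 CPM at 4 Gy, without overlap (log2 -1.12, SE 0.14, adjusted p = 0.000805). Fosb went from 79.8, 63.8 and 64.3 CPM to 36.2, 37.8 and 21 CPM (log2 -1.15, adjusted p = 0.00355). The other 20 AP-1 and immediate early genes were not called, with values between -0.32 and 0.35. The share called lower among all tested genes was 0.332%. Fos and Fosb were called whichever library or culture was left out.

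Among 22 genes of secretory mucosal defence, 2 were called lower, where 0.332% of all genes were, and 18 had negative values. The summed level of the list was 0.915, 0.54 and 0.99 times its 0 Gy value in mTG11, mTG12 and mTG14. Its fall thus lay mostly in mTG12. Bpifb1, a secreted protein of airway mucosa, differed widely between cultures, at 6.43, 3.22 and 94.3 CPM before and 1.89, 1.35 and 37 CPM after (log2 -1.50, SE 0.20, adjusted p = 0.00105). It was lower at 4 Gy in each culture, while the groups overlapped. Pigr, the carrier of secretory antibodies, had a log2 fold change of -0.69. Outside that list, the iron carrier Trf went from 228, 564 and 567 CPM to 141, 126 and 332 CPM (log2 -1.25, adjusted p = 0.00804). The protease inhibitor A2ml1 went from 127, 391 and 63.5 CPM to 84.6, 92.2 and 36.4 CPM (-1.24), and the eosinophil attractant Ccl11 from 30, 89.9 and 54.6 CPM to 23.4, 26.1 and 34 CPM (-1.03). In Trf, A2ml1 and Ccl11 the drop was steepest in mTG12. Falls of similar size were found in the sialyltransferase St8sia6 (-1.04), Fetub (-0.99) and Tmc5 (-0.89).

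The neighbouring doses at day 11 placed 4 Gy between 2 Gy and 7 Gy in the number of calls. Against the same 0 Gy libraries, 72 genes (0.362%, 0.281% higher and 0.0804% lower) were called at 2 Gy and 1296 (6.51%, 3.6% higher and 2.91% lower) at 7 Gy. Since the 3 comparisons share their controls, values are only set side by side. Interferon-stimulated genes were called higher in 18 cases at 2 Gy, 30 at 4 Gy and 34 at 7 Gy, with list medians of 0.96, 1.22 and 1.67. The summed level reached 1.98, 1.73 and 2.02 times the 0 Gy level at 2 Gy in mTG11, mTG12 and mTG14, and 3.02, 4.06 and 3.19 times at 7 Gy. MHC class I genes were called in 6, 9 and 13 cases. Multiciliated-cell genes had 5, 10 and 13 calls, all lower, with medians of -1.62, -1.77 and -1.68, and 0.413 to 0.444 of the summed level was left at 2 Gy against 0.308 to 0.473 at 7 Gy. Mitosis genes had 0 calls and a median of -0.02 at 2 Gy, 4 calls at 4 Gy, and 29 calls with a median of 1.17 at 7 Gy.

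Tested directly, 4 Gy and 2 Gy were not distinguished for any gene by edgeR: 0 were called, 1528 had an unadjusted p under 0.05, and DESeq2 called 33. Without the 2 Gy or the 4 Gy library of mTG12, 21 and 43 were called by edgeR. Between 7 Gy and 4 Gy, 49 genes (0.246%) were called, 34 higher (0.171%) and 15 lower (0.0754%) at 7 Gy, and leaving out 1 library gave 12 to 31. Of the interferon-stimulated list 6 were higher at 7 Gy, led by Ifi27l2a (log2 1.49, adjusted p = 0.021), and of MHC class I 4, among them B2m (0.70, adjusted p = 0.0179). The histone genes H2ac12 and H2ac11, whose reads may be shared, were higher by 1.43 and 1.36. Lower at 7 Gy than at 4 Gy were the stress-induced pseudokinase Trib3 (-1.04), the dual oxidase maturation factor Duoxa2 (-0.86) and Zc3h6 (-0.86). For multiciliated-cell genes 0 differences were called between 7 Gy and 4 Gy.

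**Figure D4:**
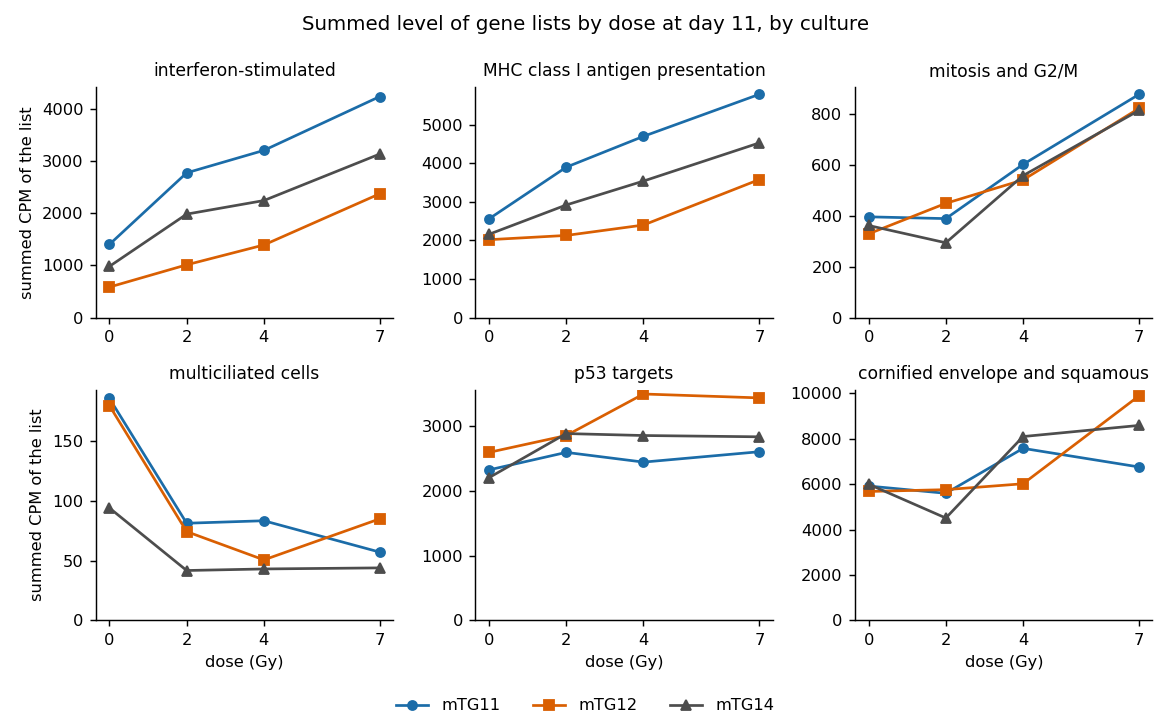
Summed CPM of 6 gene lists (vertical axis, from 0) against dose in Gy at day 11, with 1 line per culture. Interferon-stimulated genes climb with each dose in every culture, up to 4230, 2370 and 3130 CPM at 7 Gy, whereas genes of multiciliated cells drop at 2 Gy and lie between 43.1 and 85.1 CPM at 4 and 7 Gy.

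The response to 4 Gy was also compared between day 11 and day 7, which is 2 days after irradiation. At day 7, 996 of 21928 genes (4.54%) were called between 4 Gy and 0 Gy, 2.63% higher and 1.91% lower. The test of the difference between the responses, in a fit over 24 libraries with culture within day as the block, called 173 genes (0.789%), of which 104 (0.474%) had a more positive and 69 (0.315%) a more negative response at day 11. Of the 238 genes called at day 11, 20 were among them. Leaving out 1 library gave 56 (mTG11 at 4 Gy, day 11) to 329 calls (mTG12 at 4 Gy, day 11), leaving out culture mTG11 gave 9, and 24 were called without the block.

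Of the 28 p53 targets, 21 were called higher at day 7 with a median of 1.12, against 3 and 0.28 at day 11, and 7 had a response that was smaller at day 11 by the interaction test. Ccng1 had log2 fold changes of 1.56 and 0.33 at days 7 and 11 (difference -1.21, adjusted p = 0.00027), and Cdkn1a of 1.04 and 0.33 (difference -0.69, adjusted p = 0.0225). Aen, Eda2r, Zmat3, Plk2 and Trp53inp1 were the others.

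Of the mitosis genes, 3 were called lower at day 7 and 0 higher with a median of -0.27, and 9 of 32 had a more positive response at day 11, among them Mki67 with a difference of 1.37 (adjusted p = 0.0271) and Nusap1 with 1.48 (adjusted p = 0.0025). The base level had changed in between: at 0 Gy the summed level was 1250 to 1520 CPM at day 7 and 329 to 396 CPM at day 11. In irradiated organoids it was 1090 to 1290 CPM at day 7, where the doses overlapped, and 541 to 602 CPM at day 11, where they did not.

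Interferon-stimulated genes had a like count of calls on both days, 30 at each, with medians of 1.92 at day 7 and 1.22 at day 11, and 0 of them passed the test of the difference. Summed levels rose with time in the controls too, from 311 to 474 CPM at day 7 to 584 to 1400 CPM at day 11. Of the MHC class I genes, 2 were called at day 7, with a median of 0.18, and 9 at day 11. H2-K1 was the 1 member that passed the test of the difference, with log2 fold changes of 0.30 and 1.07 (difference 0.79, adjusted p = 0.0101). B2m had 0.85 at day 7 and 1.52 at day 11.

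Multiciliated-cell genes had 1 call at day 7 and a median of 0.28, against 10 calls and -1.77 at day 11. Their summed level was 31.3 to 39.7 CPM at 0 Gy and 27.5 to 40.7 CPM at 4 Gy on day 7, ratios of 0.962, 1.04 and 0.879. By day 11 it stood at 94.2 to 186 CPM in controls and at 43.1 to 83.5 CPM in irradiated organoids. Rsph1 was the only member that passed the test of the difference (-1.89), although the list's median difference was -1.91. In the cornified envelope list, 7 genes were called lower and 1 higher at day 7, and Asprv1, Dmkn, Crnn and Krtdap had a more positive response at day 11.

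**Figure D5:**
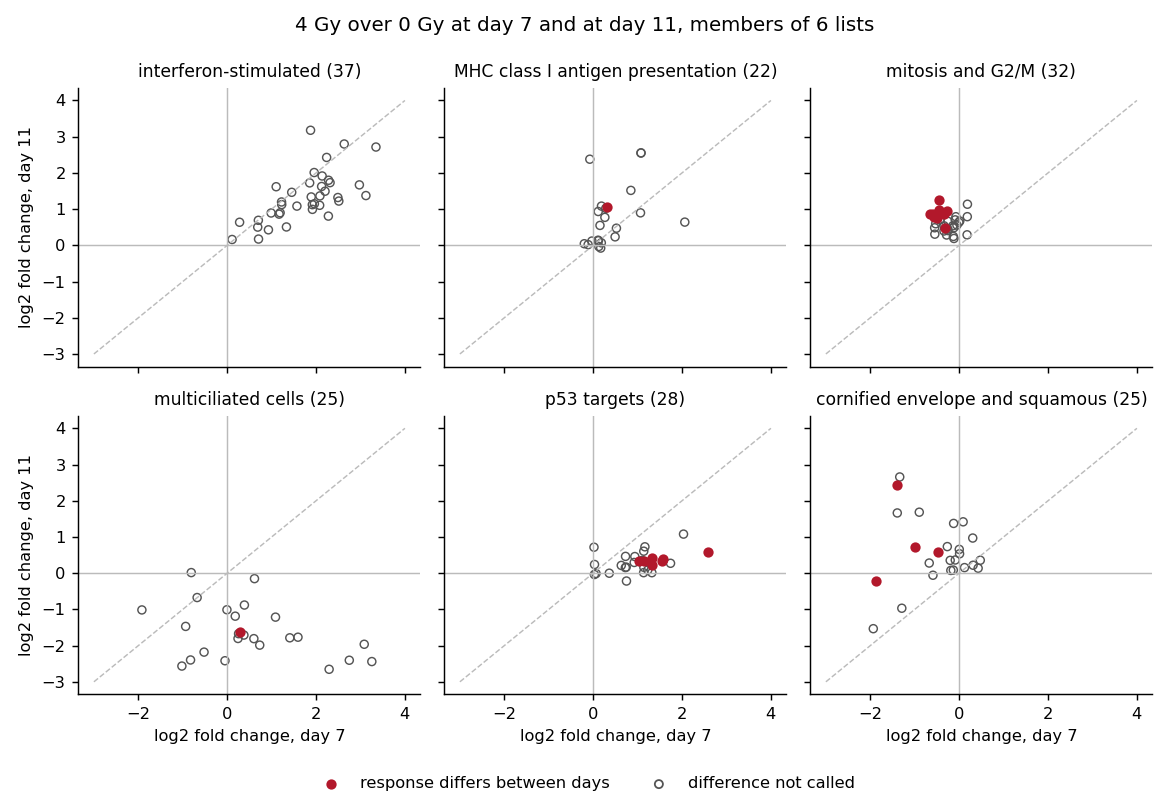
Log2 fold change of 4 Gy over 0 Gy at day 7 (horizontal) against day 11 (vertical) for the members of 6 lists, filled where the response differed between days with an adjusted p under 0.05. The dashed line marks equal responses. Targets of p53 lie mostly below it, with medians of 1.12 and 0.28, and mitosis genes above it, with medians of -0.27 and 0.61.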

How the data were processed

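Gene counts of thyroid gland organoids were taken from the deposited table, which holds estimated counts per gene symbol for 50559 genes, not normalized and partly fractional (56.3% of the values above 0 were whole). The submitters' processing notes name GRCm39, STAR and edgeR; the counting tool, annotation, strand setting and handling of molecular identifiers are not given in the sources used here. Counts were rounded, and genes with at least 10 counts over the fit were kept. The main fit used edgeR 4.0.16 (R 4.3.3) with TMM factors, quasi-likelihood tests, Benjamini-Hochberg adjustment at 0.05, the 12 day 11 libraries and culture as a block, after a check that same-culture libraries deviated together (mean correlation 0.342). The day comparison used 24 libraries with culture within day as the block. CPM are counts over the library total without TMM. DESeq2 1.42.0 and the other alternatives are given under the dependence on processing. On simulated counts for 4 Gy against 0 Gy at day 11, edgeR recovered 96.5% of 200 genes changed by a log2 value of 1. Of its calls, 8.1% were false. The changed genes were drawn only from genes of higher mean count. Noise came from the fitted model, and each culture's effect was the same at every dose. The recovery therefore does not describe genes of low count. Genes were named as the 12 largest changes and 3 smallest p-values in each direction, called, averaging 10 CPM or more and moving alike in 3 cultures, and as members of the lists; others are marked. The comparison, lists and tests were chosen with earlier results of these data known. Promoter windows were matched by symbol for 12587 of 19901 genes (a gene holds a motif if any of its windows does), and GRCm39 gene positions come from GENCODE. Some genes that this rule or the lists hold are not reported here.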

Additional observations from a re-analysis of the deposited data

Results flagged for a closer look

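By the interaction term of the edgeR fit, 173 genes answered 4 Gy differently at day 11 than at day 7, 104 more positive and 69 more negative at day 11. The genes given here had the largest differences among those averaging 10 CPM or more over the libraries of both days and differing alike in 3 cultures; some genes outside these limits had larger ones. On the positive side these began with Asprv1, a protease of the cornified layer (log2 3.83, SE 0.79, adjusted p = 0.017), with 80.2, 38.2 and 77.5 CPM in the 0 Gy and 15.2, 21.4 and 40.1 CPM in the 4 Gy libraries of day 7. At day 11 it was at 0.238, 0.268 and 1.65 CPM at 0 Gy and 2.7, 3.6 and 5.8 CPM at 4 Gy and was not called (adjusted p = 0.0545), so the size of the difference rests on control levels near 0. The glutathione transferase gene Gsta1 (2.70, adjusted p = 0.00373) and Gm3776 (2.59, adjusted p = 0.0054) are a near-identical pair that may share reads. Gsta1 was at 64.1, 60.5 and 77.5 CPM at 0 Gy and 26.3, 26.2 and 37.6 CPM at 4 Gy on day 7, and at 10.8, 7.62 and 8.91 CPM and 17.9, 55.9 and 9.85 CPM on day 11. On the negative side, differences were found in 9530053A07Rik (-2.40, adjusted p = 0.00551), in the adhesion molecule Mcam (-2.30, SE 0.27, adjusted p = 0.000243) and in the metalloprotease Adam12 (-2.24, adjusted p = 0.00574). Mcam was at 4.69, 5.83 and 8.49 CPM at 0 Gy and 43.7, 56.9 and 46.6 CPM at 4 Gy on day 7, a log2 fold change of 2.90. On day 11 it was at 19.3, 18.2 and 17.6 CPM and 24, 39.8 and 20.7 CPM, a log2 fold change of 0.58.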

How the results depend on the processing

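Without the replicate block, 1 gene was called for 4 Gy against 0 Gy (238 with it), 0 for 7 Gy against 4 Gy (49), and 24 for day 11 minus day 7 (173), while 0 was found for 4 Gy against 2 Gy with or without it. With no filter on low counts the calls for 4 Gy against 0 Gy, 4 Gy against 2 Gy, 7 Gy against 4 Gy and the day difference were 773, 328, 433 and 680, and 61.6% of the 773 were higher against 72.3% of the 238. DESeq2 called 33 for 4 Gy against 2 Gy, a stricter filter gave 76 for 7 Gy against 4 Gy, and a fit of the 6 libraries compared, with the block, gave 147 for 4 Gy against 0 Gy, 134 of them shared with the 238. The cause of these moves was not tested. For 4 Gy against 0 Gy, DESeq2 (199 calls, 170 shared), median-ratio factors (237), no TMM factors (241), the stricter filter (280), removal of ribosomal and mitochondrial RNA (247) and unrounded counts (232) stayed within 1.5 times. Leaving out 1 library gave 84 to 160 calls for 4 Gy against 0 Gy, 0 to 43 for 4 Gy against 2 Gy, 12 to 31 for 7 Gy against 4 Gy and 56 to 329 for the day difference. Leaving out culture mTG11, mTG12 or mTG14, a choice made after seeing the data like the unrounded counts, gave 99, 108 and 88 for 4 Gy against 0 Gy and 9, 251 and 57 for the day difference. The share called higher was 86.1% without the 4 Gy library of mTG12 and 83.3% without culture mTG12. Among named genes that were not called, the log2 fold change of Trp73 ran from -0.048 (without mTG12 at 0 Gy) to 0.079 (without culture mTG11) over the omissions of a library or culture, and was also negative without mTG14 at 4 Gy (-0.042) and without culture mTG12 (-0.018), and that of Foxe1 ran from -0.191 (without culture mTG12) to 0.014 (without culture mTG11). At 3 counts per library, levels under about 0.828 CPM could not be told from 0. The parathyroid list, the endothelial list under the stricter filter and the mitochondrial list without its genes gave no median in settings that left them untested.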

Other observations

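Some gene groups moved between days without a call at day 11. Among all tested genes, 1.91% were called lower at day 7 and 0.474% had a more positive response at day 11. Of 27 genes of cholesterol and fatty acid synthesis, 0 were called for 4 Gy at day 11 (median log2 fold change 0.21, 25 of 27 positive), 10 were called lower at day 7 (median -0.34), and 7 had a more positive response at day 11. Fdps, an enzyme of the isoprenoid pathway, was at 211, 196 and 216 CPM at 0 Gy and 141, 146 and 127 CPM at 4 Gy on day 7, then at 35.7, 33.2 and 29.9 CPM and 61.7, 44.1 and 54.4 CPM on day 11 (difference 1.33, SE 0.20, edgeR adjusted p = 0.0017). The order of the doses was thus opposite on the 2 days in every culture. Of 26 glycolysis and hypoxia genes, 13 were called lower at day 7 and 0 at day 11, and 5 had a more positive response at day 11, among them Ndrg1 (difference 1.04, adjusted p = 0.0016) and the oxygen-sensing hydroxylase Egln3 (1.38, adjusted p = 0.0098).

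Of the 13 mitochondrially encoded genes, 2 were called lower at 4 Gy on day 11. Among all tested genes, 0.332% were called lower and 4.52% were lower without overlap. ND5, a subunit of complex I, went from 574, 534 and 749 CPM to 349, 405 and 320 CPM (log2 -0.79, adjusted p = 0.00904), and ATP8 from 243, 232 and 219 CPM to 143, 126 and 112 CPM (-0.88, adjusted p = 0.0365), both without overlap. ATP8 was not called by DESeq2. Amino acid stress genes under ATF4 had 2 calls among 24, Trib3 (-0.54) and the transporter subunit Slc3a2 (-0.36), and 0 positive values.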
